A study of Homo sapiens with 11 samples.

Results

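FKBP5 is 1 of 594 endogenous genes on the NanoString nCounter panel used here, and its single probe was followed sample by sample through 4 groups of THP-1 cells. THP-1 is an established human line grown from a monocytic leukaemia. The 4 groups were macrophages given dexamethasone (Mac Dex, 2 samples), macrophages given vehicle (Mac Control, 3 samples), monocytes given dexamethasone (Mono Dex, 3 samples) and monocytes given vehicle (Mono Control, 3 samples). Macrophages were made from the monocytes with the phorbol ester PMA for 3 h and 24 h of recovery. Every group then spent 24 h in charcoal-stripped medium, which is depleted of steroids, before 6 h of vehicle or of 100 nM dexamethasone (Dex), a synthetic glucocorticoid. Whether the replicates were independent cultures is not stated in the labels, so each p below measures sample-to-sample spread that could be partly technical. The design text names 12 samples. The authors left out 1 Mac Dex sample because it clustered with Mac Control samples and showed no rise of FKBP5. The height of FKBP5 in Mac Dex is therefore partly the reason why those samples are here, and no p is given for FKBP5 in any comparison that uses Mac Dex.

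FKBP5 encodes FKBP51, a co-chaperone with a peptidyl-prolyl isomerase domain that binds HSP90 in the glucocorticoid receptor complex. FKBP51 lowers the affinity of the receptor for its hormone. The hormone-bound receptor switches on FKBP5 in many tissues, through response elements described within its introns, so the gene product restrains the receptor that induced it. FKBP51 has also been described as a scaffold for the kinase IKK-alpha (CHUK) in NF-kappaB signalling. Its RNA is widely used as a readout of glucocorticoid action in blood cells.

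FKBP5 lies on the minus strand of chromosome 6, from position 35573590 to 35728583 in the RefSeq annotation of build GRCh38.p14, a span of 154994 bases. RefSeq gives it 2 promoter windows whose starts are 39668 bases apart. They are printed because a receptor-induced gene invites the question of whether a receptor motif stands at the start itself. Capitals mark matches to AGAACA (the left hexamer of the glucocorticoid response element), GGGCGG (the GC box) and CCAAT, each sought on both strands.
Upstream start, chr6:35728578-35728833, minus strand: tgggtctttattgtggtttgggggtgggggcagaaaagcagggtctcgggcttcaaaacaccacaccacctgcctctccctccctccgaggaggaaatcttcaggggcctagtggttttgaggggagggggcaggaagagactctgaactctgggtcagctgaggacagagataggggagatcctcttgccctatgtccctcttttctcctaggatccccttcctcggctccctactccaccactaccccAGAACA
Downstream start, chr6:35688916-35689165, minus strand: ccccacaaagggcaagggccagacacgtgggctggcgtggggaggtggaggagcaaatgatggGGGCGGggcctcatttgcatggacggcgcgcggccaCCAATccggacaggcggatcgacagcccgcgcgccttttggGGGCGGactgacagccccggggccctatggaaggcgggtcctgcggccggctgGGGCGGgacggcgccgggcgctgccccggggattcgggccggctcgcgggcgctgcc
The complete element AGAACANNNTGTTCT was in neither window, and it was in 1 of 35116 human promoter windows of 250 bases before a start (0.0028477%). The hexamer alone, which is part of the complete element, occurred in 12.4% of all windows. At the upstream start it began at the first transcribed base, and the 250 bases before either start held none. The downstream window carried 3 GC boxes and 1 CCAAT box, motifs found in 42.6% and 32.0% of all windows. The 250 bases before the starts were 57.6% G or C upstream and 74.8% downstream, against a median of 58% over all windows. A missing match says only that these letters are not in these windows, and the panel's probe does not tell transcripts from the 2 starts apart.

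FKBP5 was far higher with Dex in both cell states. The values are the authors' normalised signal, a linear unit. Above the lowest values it is proportional within a sample to a net count of barcodes, whose background is not known. FKBP5 read 38036 and 37307 units in Mac Dex replicates 1 and 5, against 435.2, 407.1 and 623.1 units in Mac Control replicates 1, 3 and 5. In monocytes it read 24832, 24990 and 24903 units in Mono Dex replicates 2, 3 and 6, against 1259, 1205 and 1247 units in Mono Control replicates 1, 3 and 6. Every Dex sample stood far above every vehicle sample of its state. Dex and vehicle samples did not overlap for 58.6% of tested genes in macrophages and for 54.6% in monocytes. For FKBP5 the 4 groups did not overlap anywhere in the order Mac Dex, Mono Dex, Mono Control, Mac Control. The group means were 37671 ± 516 units in Mac Dex (SD, n = 2), 488 ± 117 in Mac Control, 24908 ± 79.2 in Mono Dex and 1237 ± 27.9 in Mono Control (SD, n = 3 each).

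**Figure D1:**
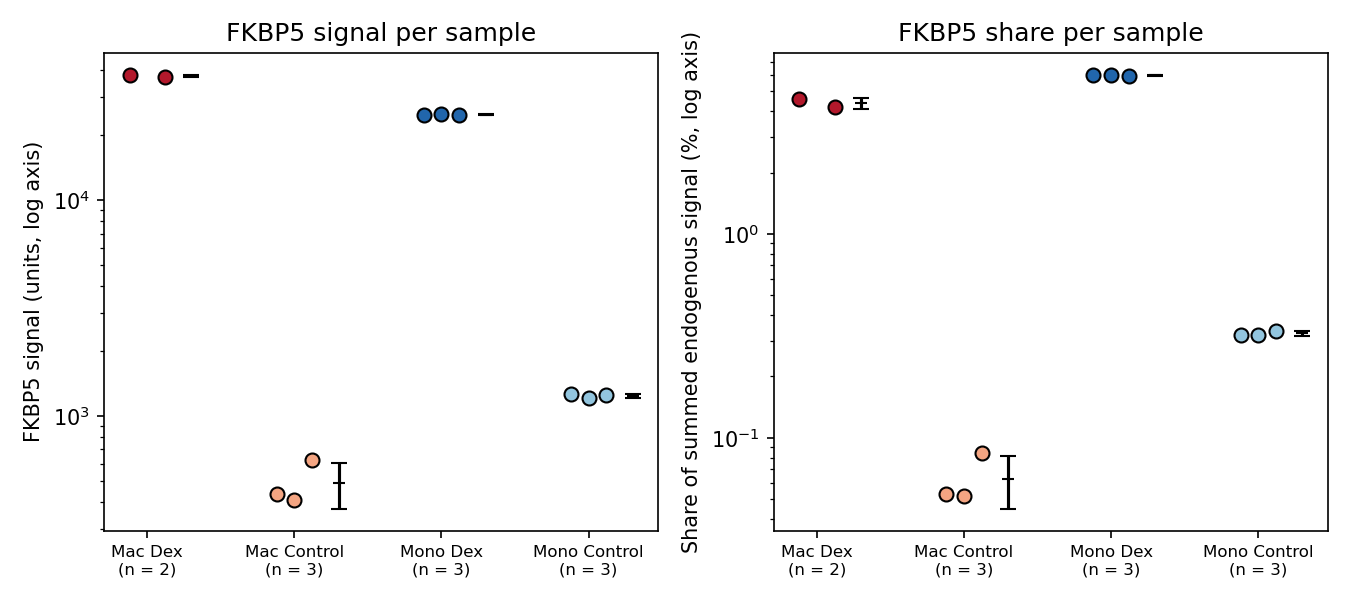
FKBP5 signal of each sample (left, authors' normalised units) and its share of the summed endogenous signal (right, percent) by group, both on log axes, with points for samples and bars for the group mean ± SD. The 2 Mac Dex samples lie at 37307 and 38036 units, the 3 Mono Dex samples between 24832 and 24990, the 3 Mono Control samples between 1205 and 1259, and the 3 Mac Control samples between 407.1 and 623.1.

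In monocytes the Dex mean was 20.1 times the vehicle mean. The moderated test of limma, fitted over the 379 genes whose highest group mean reached 20 units, gave a log2 change of 4.33 (SE 0.11, adjusted p = 1.38e-12) for Mono Dex against Mono Control. In that comparison 39.1% of the tested genes passed at an adjusted p under 0.05, and 16.9% passed as higher. In macrophages the mean was 77.1 times higher in Mac Dex than in Mac Control, a log2 change of 6.29 (SE 0.12), given as a description. Of all tested genes 22.4% were called higher in that comparison. The log2 change was 1.96 larger in macrophages than in monocytes (SE 0.17), again with no test. That difference passed for 25.9% of tested genes, for 13.5% as higher and 12.4% as lower in macrophages.

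On the authors' signal, the order of the states was turned round without Dex. On net counts and on the share of the summed signal, both given below, monocytes averaged more with and without Dex. FKBP5 averaged 488 units in Mac Control, against 1237 units in Mono Control, so the monocyte level was 2.53 times the macrophage level. Limma gave a log2 difference of −1.36 (SE 0.11, adjusted p = 3.06e-08) for Mac Control against Mono Control, and the samples did not overlap. Most genes differ between these groups: 84.7% of tested genes passed, 65.2% as higher and 19.5% as lower in Mac Control, while samples did not overlap for 85% of genes. The median gene was 0.72 log2 units higher in Mac Control, so FKBP5 was low there against a general shift upwards. In RNA from a whole culture, fewer cells with a transcript and less of it in each cell cannot be told apart.

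The larger fold in macrophages therefore had a lower starting level in its denominator. In added units of the authors' signal, Dex brought 37183 units of FKBP5 in macrophages and 23671 units in monocytes. Which state gained more depended on the scale, as given below. In both states the gain of FKBP5 on that signal was the largest of any of the 594 genes. It made up 24.9% of the summed gains of all genes that stood higher in Mac Dex than in Mac Control, and 41.1% of those that stood higher in Mono Dex than in Mono Control. The next largest gain in both states was that of IL32, a cytokine of leukocytes, with 12913 units in macrophages and 5879 units in monocytes. The largest loss in both was that of IL8 (now named CXCL8), the neutrophil chemokine, at −12516 units in macrophages and −2705 units in monocytes.

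The sum over the whole panel was higher with Dex too. The summed endogenous signal was 831833 and 889658 units in Mac Dex, against 742895 to 819439 in Mac Control, and 413358 to 420466 units in Mono Dex, against 372345 to 393214 in Mono Control. The mean sum was 10.05% higher in Mac Dex than in Mac Control and 9.40% higher in Mono Dex than in Mono Control, with no overlap of samples. Without the FKBP5 row the sums were 5.30% higher in Mac Dex and 3.19% higher in Mono Dex than in their vehicle groups, and in both states the samples overlapped.

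As a share of the summed endogenous signal, FKBP5 took 4.57% and 4.19% in Mac Dex, against 0.0531%, 0.0519% and 0.0839% in Mac Control. In monocytes it took 6.01%, 6.02% and 5.92% in Mono Dex, against 0.320%, 0.320% and 0.335% in Mono Control. Wilson 95% intervals were taken on rounded net counts, not on the whole counts, and cover counting error only. They ran from 4.14% to 4.63% over the 2 Mac Dex samples and from 5.86% to 6.09% over the 3 Mono Dex samples. They ran from 0.0463% to 0.0915% over the Mac Control samples and from 0.303% to 0.350% over the Mono Control samples. Exact two-sided permutation tests of the share gave p = 0.1 for Mono Dex against Mono Control, a difference of 5.66 percentage points, and p = 0.1 for Mac Control against Mono Control, a difference of −0.262 points. With 3 samples against 3 that is the smallest p possible, for both of the 2 relations tested and after Benjamini-Hochberg adjustment (0.1).

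FKBP5 moved into the company of the most abundant probes. A rank compares probes, each with a capture efficiency of its own, and so only orders signals. In both Mac Dex samples FKBP5 ranked 4 of 594, against 197, 201 and 149 in Mac Control. In all 3 Mono Dex samples it ranked 5, against 63 in all 3 Mono Control samples. No group shared a rank with another.

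By group mean in Mac Dex it stood below B2M (78741 ± 2681 units), the light chain of MHC class I, SPP1 (66450 ± 289), which encodes osteopontin, and IL32 (53799 ± 18057). The next probe down was GAPDH, the glycolytic enzyme often used as a reference gene, at 31893 ± 561 units (SD, n = 2). The IL32 samples spread so widely that its place above FKBP5 is within reach of its SD, whereas GAPDH and FKBP5 were further apart than the SD of either. In Mono Dex the probes above were RPL19, a ribosomal protein gene (30249 ± 536 units), IL32 (30018 ± 1485), GAPDH (29084 ± 246) and B2M (26946 ± 158). EEF1G, an elongation factor subunit, came next below at 23142 ± 781 units (SD, n = 3). FKBP5 differed from B2M and from EEF1G there by more than their SDs.

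With vehicle its neighbours were genes of middling signal. In Mono Control they were CD276, an immune checkpoint ligand (1239 ± 25.9 units), just above, and PTPN6, the phosphatase SHP-1 (1227 ± 49.8), just below, neither of which differed from FKBP5 beyond the SD. ALAS1 (1296 ± 4.74), SKI (1314 ± 32.3), ITGA5 (1325 ± 52.4) and FCGR2A/C (1334 ± 15.9) stood higher. In Mac Control, where FKBP5 ranked 180 by mean, the neighbours SLC2A1 (492 ± 54.2 units), ATG16L1 (504 ± 33.4), ITGAE (511 ± 48.3), NFKB2 (513 ± 41.7), CD209 (517 ± 65.6) and TAP1 (482 ± 67.5) all lay within its SD of 117 units.

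**Figure D2:**
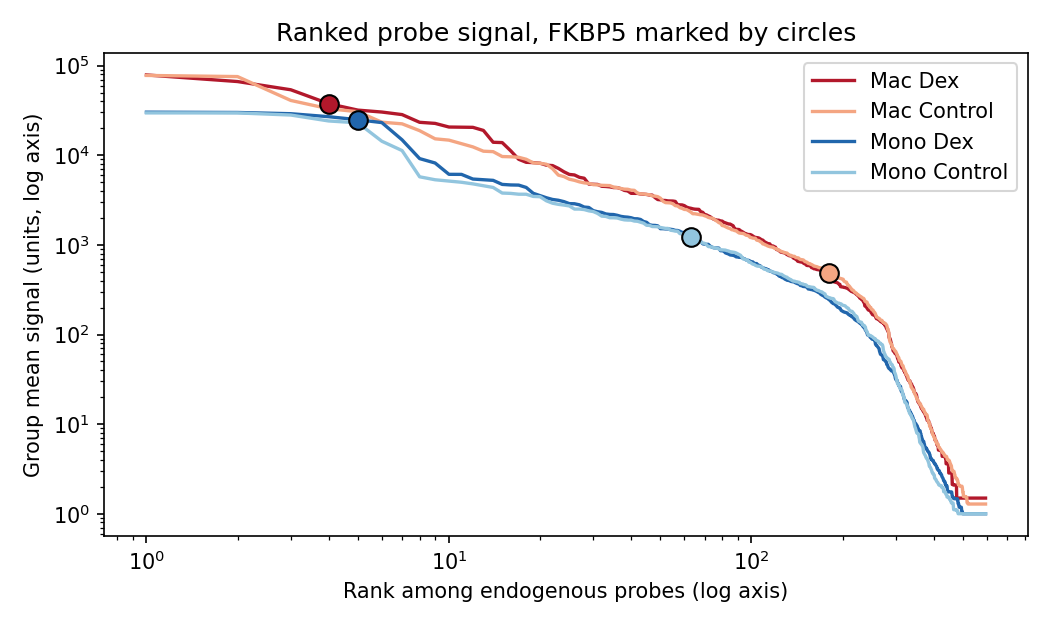
Group mean signal of the 594 endogenous probes (authors' normalised units) against rank, both on log axes, with a line for each group and a circle for FKBP5. FKBP5 sits at rank 4 in Mac Dex and 5 in Mono Dex, at 63 in Mono Control and at 180 by mean in Mac Control.

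Which Dex-treated state held more FKBP5 depended on the scale. On the authors' signal, Mac Dex was 1.51 times Mono Dex, a log2 difference of 0.60 (SE 0.12), and the samples did not overlap. Samples did not overlap between Mac Dex and Mono Dex for 85.8% of tested genes. Each deposited value is a net count multiplied by a factor of the sample, and that factor was 1.47 and 1.52 in Mac Dex, 1.21 to 1.42 in Mac Control, 0.737 to 0.965 in Mono Dex and 0.659 to 0.953 in Mono Control. With the factor divided out, FKBP5 had 25862 and 24562 net counts in Mac Dex, against 33692, 25887 and 29150 in Mono Dex, so the macrophage mean was 0.852 times the monocyte mean and the nearest samples were almost level. As a share of summed signal Mac Dex was 0.733 times Mono Dex. Relative to the geometric mean of the 16 housekeeping genes FKBP5 was 13.7 and 13.0 in Mac Dex, against 11.3, 11.4 and 11.2 in Mono Dex. As a percentage of their sum it was 19.4% and 18.5% in Mac Dex, against 18.5%, 18.6% and 18.5% in Mono Dex, and the samples overlapped. Relative to GAPDH it was 121% and 116% in Mac Dex, against 84.9%, 85.5% and 86.5% in Mono Dex. The summed endogenous signal was 2.07 times higher in Mac Dex than in Mono Dex, and its part in these orders was not tested.

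**Figure D3:**
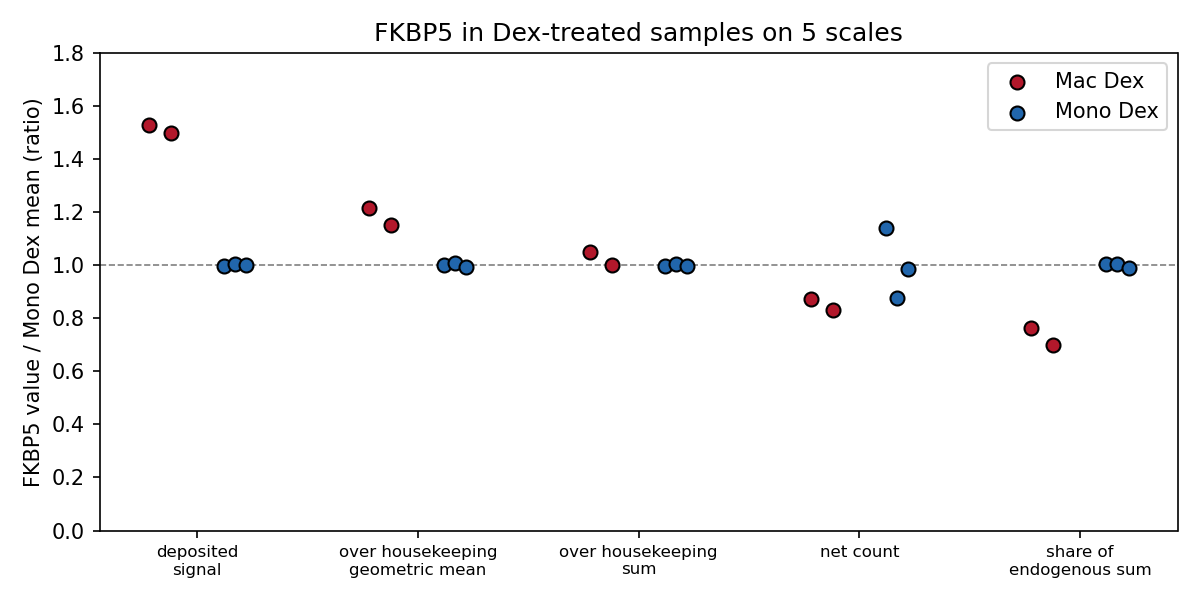
FKBP5 in each Dex-treated sample divided by the Mono Dex mean (ratio, linear axis; the dashed line marks 1) on 5 scales, in Mac Dex (red) and Mono Dex (blue). The Mac Dex mean is 1.51 times the Mono Dex mean on the deposited signal, 1.18 and 1.02 times over the housekeeping geometric mean and sum, 0.852 times on net counts and 0.733 times on the share.

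The other comparisons kept their direction on every one of these scales, but the order of the Dex gains did not. On net counts the gain was 24826 in macrophages and 28024 in monocytes, and on the share 4.32 and 5.66 percentage points. Against the housekeeping geometric mean it was larger in macrophages (13.2 and 10.8), as on the signal. So it was against the housekeeping sum (18.7 and 17.6 points) and against GAPDH (117 and 81.5 points). The Dex ratio in macrophages was 77.1 on the signal, 65.4 on net counts, 69.6 on the share, 75.9 against the housekeeping geometric mean, 76.1 against their sum and 79.2 against GAPDH. In monocytes it was 20.1, 19.1, 18.4, 20.5, 20.3 and 20.6 on the same scales. The vehicle ratio of Mac Control to Mono Control was 0.395, 0.248, 0.194, 0.319, 0.273 and 0.358. The shortfall in vehicle-treated macrophages was thus 2.53 times on the signal and 5.16 times on the share.

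The replicates of FKBP5 lay closer together than those of the median gene in 3 of the 4 groups and further apart in Mac Control. Of those 3, Mac Dex holds only 2 samples, kept in part for their FKBP5, so its small spread is not free of that choice. Among genes with a mean of at least 100 units, the coefficient of variation (SD over mean) of FKBP5 was 1.37% in Mac Dex (median gene 5.60%), 0.318% in Mono Dex (median 4.25%) and 2.25% in Mono Control (median 3.98%). In Mono Dex only 1 of 241 genes varied less, and the spread was below the counting error of a single sample (0.545% to 0.622%). In Mac Control the coefficient was 24.0%, against a median of 7.97%, and only 3 of 284 genes varied more. Counting error there was 4.42% to 5.91%. The spread came from Mac Control replicate 5, at 623.1 units.

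That replicate was not high in general. It was the lowest of the 3 Mac Control samples for 265 of the 379 tested genes and the highest for 25. Among the 11 other tested genes of the glucocorticoid-induced list below, it was highest for 3 and lowest for 6. Without it the Mac Control mean was 421 units with a coefficient of variation of 4.71%, the Dex ratio in macrophages was 89.4, and the ratio of Mac Control to Mono Control was 0.341. The net counts of FKBP5 in Dex-treated cells stayed below the top positive control of the assay. They were 60.3% and 69.5% of it in Mac Dex and 78.0%, 61.8% and 67.3% in Mono Dex. With vehicle they were 0.744% to 1.21% in Mac Control and 3.63% to 4.66% in Mono Control.

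Other known glucocorticoid-induced genes mostly rose too, and only ZBTB16 had the larger log2 change in both states. Of a list of 18 such genes, 13 were on the panel and 12 were tested, FKBP5 included. Of the 11 others, 9 rose in Mac Dex, 1 fell and 1 did not pass. Of all tested genes there, 22.4% rose and 25.1% fell (47.5% passed in either direction). The median log2 change of the 11 was 1.68 beside −0.03 for all tested genes. In Mono Dex 9 of the 11 rose and none fell, where 16.9% of all tested genes rose and 22.2% fell. The median there was 0.74 beside −0.03 for all. With group means set no lower than 20 units, the floor used here, the medians were 1.69 in macrophages and 0.73 in monocytes. The gene that fell in macrophages was CDKN1A, the cell cycle inhibitor p21, at −0.62 (adjusted p = 1.50e-05 by limma). The untested member was MRC1, the mannose receptor, at 2.71 units or less in every sample. The Mac Dex samples were kept in part for grouping apart from vehicle, so rises of other genes there are not free of that choice.

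ZBTB16, a zinc-finger transcription factor, had the largest log2 changes of these genes. It read 2178 and 2193 units in Mac Dex, against 16.5, 23.6 and 27.0 in Mac Control, and 919, 944 and 969 units in Mono Dex, against 9.91, 17.9 and 25.0 in Mono Control. No Dex sample came near a vehicle sample. Its log2 change was 6.58 in macrophages (SE 0.28, adjusted p = 3.35e-10 by limma) and 5.75 in monocytes (SE 0.25, adjusted p = 2.97e-10). With vehicle values set no lower than the floor, its monocyte ratio was at least 47.2-fold.

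SOCS1, an inhibitor of cytokine receptor kinases, read 695 and 711 units in Mac Dex, against 67.6 to 90.4 in Mac Control, and 138 to 155 units in Mono Dex, against 8.01 to 13.8 in Mono Control, so its groups were separate in both states. Its log2 change was 3.19 in macrophages, and in monocytes, where its vehicle level lay under the floor, it was at least 7.22-fold higher. The chemokine receptor CXCR4 rose by 2.09 log2 units in macrophages and 1.73 in monocytes. IL1R2, a decoy receptor for interleukin 1, rose by 2.15 in macrophages and stood at 0.74 in monocytes, which did not pass (adjusted p = 0.0619 by limma). CD163, the haemoglobin scavenger receptor, was at 1.00 unit in all 3 Mono Control samples, the lowest value in the table, and between 37.3 and 42.6 units in Mono Dex, which is at least 1.96-fold above the floor. TNFAIP3, which encodes the NF-kappaB inhibitor A20, passed in neither state, at 0.03 in macrophages (adjusted p = 0.857) and 0.26 in monocytes (adjusted p = 0.0867).

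**Figure D4:**
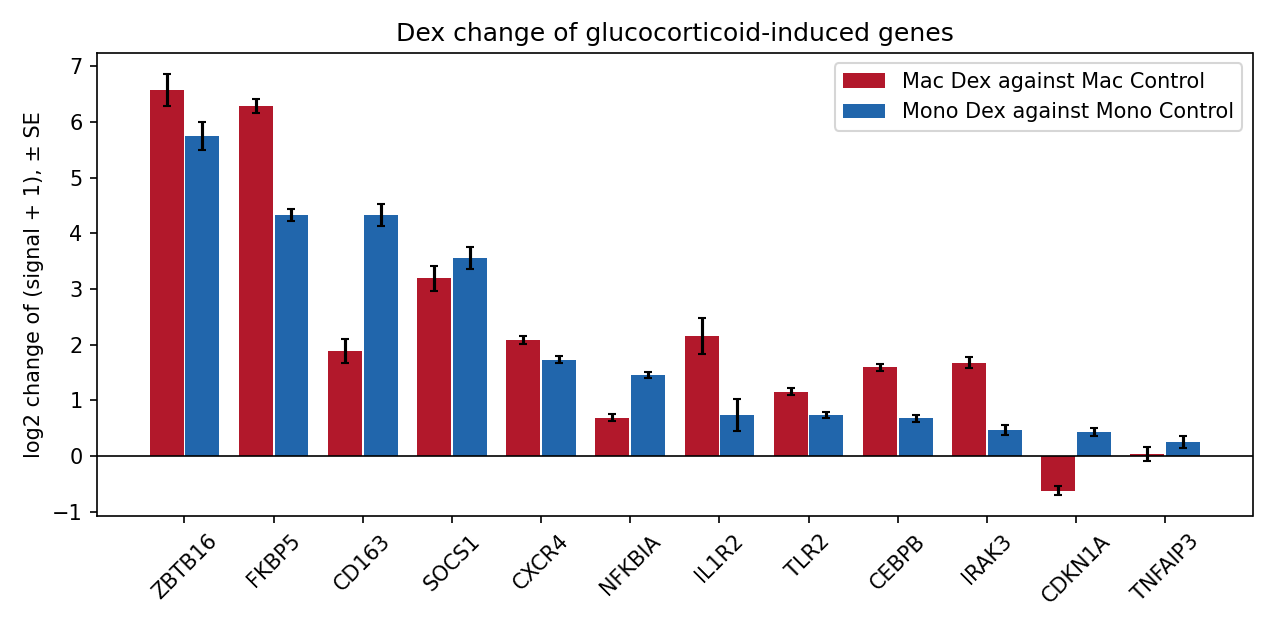
Log2 change of signal + 1 with Dex (bars; whiskers show ± SE of the limma fit) of the 12 tested genes of the glucocorticoid-induced list in macrophages and in monocytes. FKBP5 stands at 6.29 in macrophages and 4.33 in monocytes, ZBTB16 at 6.58 and 5.75, and CDKN1A lies below 0 in macrophages at −0.62.

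Inflammatory genes that glucocorticoids are known to repress went the other way. All 16 listed genes were on the panel and 12 were tested. In Mac Dex 11 fell and none rose (median log2 change −1.70), where 25.1% of all tested genes fell. In Mono Dex 10 fell and none rose (median −1.53), where 22.2% of all did. With group means set no lower than the floor the medians were −1.08 in macrophages and −1.09 in monocytes. The log2 change of IL1B, the inflammasome cytokine, was −3.63 in macrophages, and in Mono Dex, where it lay under the floor, it was at least 3.997-fold lower. For IL8 the log2 change was −2.50 in macrophages and −3.78 in monocytes. CCL2, the monocyte chemokine, was at 1.00 unit in all 3 Mono Dex samples, against 70.9 to 101 in Mono Control, which is at least 4.29-fold lower. In macrophages its Mac Dex samples were apart, at 1.47 and 22.5 units, against 63.5 to 88.1 in Mac Control, at least 3.87-fold lower. The fitted log2 change of −3.35 there was −1.73 without Mac Dex replicate 1 and −4.97 without replicate 5. IL1A, another interleukin 1 cytokine, is 1 of the 11 but reached the floor only in Mac Control. It was tested only because of that group, so its fall in Mac Dex is not free of the filter. It read 1.47 and 4.23 units in Mac Dex, against 17.9 to 25.8 in Mac Control, at least 1.14-fold lower. CXCL1, a neutrophil chemokine, was at least 2.86-fold lower in Mono Dex.

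The partners of FKBP51 in the IKK complex did not pass in either state. For CHUK (IKK-alpha), 882 and 818 units in Mac Dex stood against 872, 816 and 749 in Mac Control, and 693, 668 and 650 units in Mono Dex against 683, 671 and 678 in Mono Control. The groups overlapped in both states, with log2 changes of 0.07 in macrophages and −0.02 in monocytes. The log2 changes were 0.21 in macrophages and −0.10 in monocytes for IKBKB (IKK-beta), and 0.21 and −0.11 for IKBKG (NEMO), with adjusted p from 0.0868 to 0.516 by limma. By limma 0 of the 3 were called, where 47.5% of all tested genes passed in Mac Dex and 39.1% in Mono Dex. At an unadjusted p under 0.05 the count was 1 in macrophages and 0 in monocytes, beside 202 and 174 of all 379 genes. The receptor itself, HSP90 and the other chaperones of the complex, 10 listed genes in all, were not among the genes of the panel.

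Of 8 genes for other immunophilins and the calcineurin-NFAT pathway, which the immunosuppressive ligands of FKBP family proteins act on, 4 were on the panel. In Mac Dex 3 of them fell, where 25.1% of all tested genes did, all encoding NFAT transcription factors: NFATC1 with a log2 change of −0.86 (adjusted p = 0.0133 by limma), NFATC3 with −0.65 (adjusted p = 5.34e-07) and NFATC2 with −0.55 (adjusted p = 0.00663). Without Mac Dex replicate 1, NFATC1 (−0.68, adjusted p = 0.116) and NFATC2 (−0.42, adjusted p = 0.0723) no longer passed. In Mono Dex none of the 4 was called by limma, where 39.1% of all tested genes were. None of the 4 had an unadjusted p under 0.05, where 174 of all 379 genes did. PPIA, cyclophilin A, stood at 409 and 417 units in Mac Dex, against 401 to 421 in Mac Control, with adjusted p = 0.987.

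Some genes shared the shape of FKBP5 over the 11 samples. Each gene was scaled from 0 at its lowest to 1 at its highest sample on the log2(signal + 1) scale, and the mean absolute difference from FKBP5 was taken. The median of this distance over 378 genes was 0.490. The 8 nearest were SLAMF1, a signalling receptor of lymphocytes and macrophages (0.0766), ZBTB16 (0.0890), CD97, an adhesion receptor (0.116), LILRB4, an inhibitory receptor of myeloid cells (0.157), CFP, which encodes the complement regulator properdin (0.158), CCND3, cyclin D3 (0.163), TRAF5, a TNF receptor adaptor (0.182), and CXCR4 (0.186). The ninth gene was at 0.188, so the end of this list is not a natural break. Scaling hides size: CD97 moved over a narrow range and SLAMF1 over a wide one.

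SLAMF1 read 298 and 275 units in Mac Dex, against 1.21, 1.42 and 3.80 in Mac Control, and 397, 406 and 398 units in Mono Dex, against 1.33, 8.73 and 10.5 in Mono Control. Its vehicle samples lay below the floor and its Dex samples well above it. CD97 read 545 and 515 units in Mac Dex, against 433, 359 and 372 in Mac Control, and 510, 478 and 520 units in Mono Dex, against 432, 400 and 428 in Mono Control. LILRB4 read 1375 and 1289 units in Mac Dex, against 877 to 1006 in Mac Control, and 1411 to 1493 units in Mono Dex, against 1112 to 1153 in Mono Control. Mac Control was lowest by mean for both, as for FKBP5, but LILRB4 averaged more in Mono Dex than in Mac Dex.

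Because these 8 genes were chosen for a shape that is high with Dex, their changes are values without a test. The log2 change in macrophages and then in monocytes was 0.45 and 0.26 for CD97, 0.50 and 0.35 for LILRB4, and 0.35 and 0.19 for CCND3. For CFP, at 134 and 144 units in Mac Dex, 28.6 to 47.7 in Mac Control, 123 to 132 in Mono Dex and 79.66 to 89.98 in Mono Control, the vehicle groups were apart and the Dex groups overlapped none of the vehicle samples. TRAF5 reached the floor only in Mac Dex, at 20.4 and 24.0 units, and read at most 9.25 in any other sample. Under 14 other settings, SLAMF1 and ZBTB16 were among the 8 nearest in all 14, and CXCR4 in 6. No promoter window was found under the symbols used here for ZBTB16 and CD97. SLAMF1 (1 of 1 window) and CFP (1 of 2) carried the AGAACA hexamer, while LILRB4, CCND3, TRAF5 and CXCR4 did not. Of all promoter windows 12.4% held it.

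The mirror image of the pattern, low with Dex and highest in Mac Control, was nearest in TAGAP, an activation-induced GTPase regulator (0.105), NCF4, a subunit of the phagocyte oxidase (0.112), TRAF3, a TNF receptor adaptor (0.113), and CD83, a surface marker of activated antigen-presenting cells (0.118). CD83 read 122 and 147 units in Mac Dex, against 718, 616 and 599 in Mac Control, and 118, 145 and 135 units in Mono Dex, against 276, 247 and 275 in Mono Control. Dex brought it to a like level in both states, although the vehicle levels were apart. TAGAP read 163 and 211 units in Mac Dex, against 362 to 453 in Mac Control, and 163 to 187 units in Mono Dex, against 279 to 304 in Mono Control. These genes too were chosen by their shape, and their changes are given without a test. The log2 change of CD83 was −2.25 in macrophages and −1.003 in monocytes, and that of TAGAP −1.15 in macrophages and −0.73 in monocytes.

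**Figure D5:**
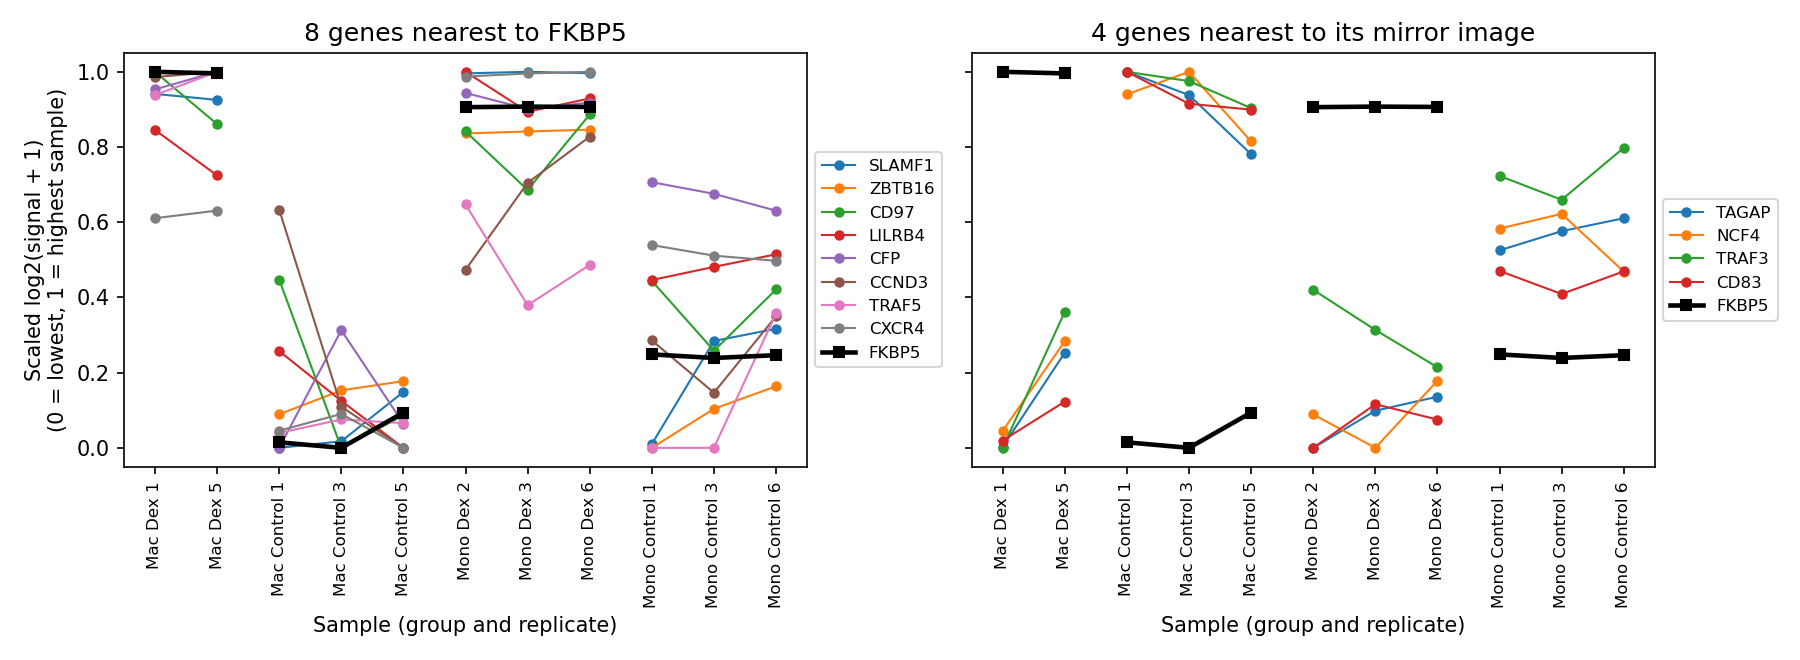
Scaled log2(signal + 1) of FKBP5 (black squares) in the 11 samples beside the 8 genes nearest to it (left) and the 4 nearest to its mirror image (right), with 0 for a gene's lowest and 1 for its highest sample. SLAMF1 and ZBTB16 lie closest to FKBP5, while TAGAP, NCF4, TRAF3 and CD83 are highest in Mac Control and lowest in the Dex groups.

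The listed markers were set beside the labels of the cells. Of the listed monocyte and macrophage markers 6 of 10 were on the panel, with summed signals of 7060 to 7448 units in Mac Dex, 6765 to 7779 in Mac Control, 2596 to 2731 in Mono Dex and 2383 to 2550 in Mono Control. Of these 6, 4 were called higher in Mac Control than in Mono Control, and CD4 and LILRB4 lower. Of all tested genes 65.2% were called higher and 19.5% lower there, so the higher calls were near the general share. SPP1, a gene of PMA-made macrophages, averaged 66450 units in Mac Dex and 75504 in Mac Control. The summed list of such genes reached 81453 units or more in macrophages and at most 1188 in monocytes, and in macrophages SPP1 was most of that sum. Of its 6 tested genes 5 were called higher in Mac Control than in Mono Control, where 65.2% of all were. CCL2 was not (77.3 against 85.7 units), and MRC1 was untested, at 2.71 units or less. MSR1 and MARCO, both among the 5, reached the floor by mean only in the macrophage groups. Their monocyte means were at most 1.75 and 18.9 units, so their higher calls are not free of the filter. None of 5 T cell or 4 NK cell markers reached a group mean of 20 units. The 16 housekeeping genes mostly did not pass: in Mac Dex 3 were called higher (SDHA, GUSB and OAZ1) and ALAS1 fell by 0.89 log2 units, and in Mono Dex GUSB was called higher and ALAS1 fell by 0.76. Of all tested genes 47.5% passed in Mac Dex and 39.1% in Mono Dex. The OAZ1 call (0.14) held only without Mono Control replicate 1 or Mac Control replicate 1 and was lost in the other 9 of 11 fits with 1 sample left out (adjusted p up to 0.161 by limma), and its sign turned with quantile normalisation. The GUSB call in macrophages (0.22) was lost without Mac Dex replicate 1 (adjusted p = 0.153), and with an equal endogenous sum GUSB passed in neither state.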

How the data were processed

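RNA (50 ng per sample) was measured on the nCounter, which counts colour-barcoded probes without amplification. The table held 594 endogenous genes, 8 negative and 6 positive controls. The deposited values are the authors' linear signal. nSolver was used for quality control per the series' design text, with no version or reference genes stated in the sources used here. All low values lay within 0.1 of a step of a grid, so the sample factor was read from the grid and net counts were signal divided by it. Summed net counts ran from 412528 to 675208 per sample. Whole counts were not recovered, since the background is unknown, and no count test was run. Negative controls reached at most 15.6.

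The 379 genes with a highest group mean of at least 20 were tested on log2(signal + 1) with limma 3.58.1 in R 4.3.3 (lmFit, eBayes with trend, Benjamini-Hochberg within each comparison, called at adjusted p under 0.05), with 4 groups in 1 fit. The fit was tested on simulated data. The members, gene lists and tests were chosen with earlier results of these data known. The text names FKBP5, its neighbours in rank by group mean, the 8 genes nearest in pattern and the 4 nearest to the mirror image, and up to 4 called genes of each list per Dex comparison. It names all 3 IKK genes, and CDKN1A, TNFAIP3 and MRC1 after their values were seen. Replicates of a group correlated with r from 0.988 to 0.994 and differed beyond counting noise. Alternatives were other scalings, pseudocounts and filters, a replicate block and leaving out each sample. Promoter windows came from RefSeq (GRCh38.p14). The result of 1 further list of cell type markers is not reported here.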

Additional observations from a re-analysis of the deposited data

Results flagged for a closer look

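In limma's interaction contrast 25.9% of tested genes passed. There the change with Dex differed between macrophages and monocytes for 11 genes named above. These came from the glucocorticoid, NFAT and housekeeping lists or were chosen by pattern. Genes named only as rank neighbours or cell markers are not in this count, so it gives no share to set beside the 25.9%. Of the markers, SPP1 (adjusted p = 1.01e-05) and MSR1 (0.0493), which lay under the floor in monocytes, passed too, as lower in macrophages. The values are the macrophage log2 change minus the monocyte log2 change. FKBP5 itself has no test there. Among the glucocorticoid-induced genes the difference was −2.45 for CD163 (adjusted p = 2.28e-05), −1.05 for CDKN1A (5.43e-06), 1.42 for IL1R2 (0.0305) and 0.35 for CXCR4 (0.0264). CDKN1A fell by 0.62 in Mac Dex and rose by 0.43 in Mono Dex. The CD163 value rests on Mono Control samples at the lowest value in the table, and with a pseudocount of 20 it was 0.28. Among the repressed genes the difference was 1.28 for IL8 (adjusted p = 0.000138), 1.07 for CXCL1 (0.0262) and −0.75 for IL1B (0.0416). CFP (1.38) and CD83 (−1.25) were chosen by their nearness to the pattern of FKBP5 or its mirror image. They are among the 11 but not independent of that pattern, so their differences are values without a test. CXCR4 is on the glucocorticoid-induced list but is also 1 of the 8 nearest genes, so its adjusted p is not independent of that pattern either. For NFATC3 the difference was −0.54 (adjusted p = 0.000143), and for SDHA 0.40 (0.0370). Several of these calls were lost with 1 sample left out. CXCR4 lost it without Mono Control replicate 1, Mono Dex replicate 2 or 3, or Mac Dex replicate 5 (adjusted p up to 0.0870), and IL1R2 without Mono Control replicate 3 or 6, Mono Dex replicate 3, Mac Control replicate 3 or Mac Dex replicate 1 (up to 0.104). CXCL1 lost it without Mono Dex replicate 2, Mac Control replicate 5 or Mac Dex replicate 5 (up to 0.136). IL1B lost it in 8 of 11 fits, all but those without Mono Control replicate 6, Mono Dex replicate 2 or Mac Dex replicate 5 (up to 0.186), and SDHA in 8 of 11, all but those without Mono Control replicate 3, Mono Dex replicate 2 or Mac Control replicate 1 (up to 0.115). Groups of 2 or 3 samples were too small for a check of single samples that lie apart.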

How the results depend on the processing

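FKBP5 kept its direction and its call in both tested comparisons under every setting run. Leaving out 1 sample gave 4.31 to 4.34 for Mono Dex against Mono Control (highest adjusted p 2.88e-10) and −1.55 to −1.25 for Mac Control against Mono Control (highest adjusted p 5.46e-07). For Mac Dex against Mac Control it gave 6.17 to 6.48, for the difference of the Dex changes 1.84 to 2.15, and for Mac Dex against Mono Dex 0.58 to 0.61. Centring samples on their median put FKBP5 at 6.52 for Mac Dex against Mac Control and quantile normalisation at 6.52, and the latter gave 2.55 for the difference of the changes. Mac Dex against Mono Dex was −0.24 with median centring, −0.45 with an equal endogenous sum (chosen after seeing the data), 0.17 with quantile normalisation and 0.24 with housekeeping centring.

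Higher calls with median centring numbered 152 in Mac Dex (85 as reported), 104 in Mono Dex (64) and 149 in Mac Control against Mono Control (247), where lower calls were 178 (74). Quantile normalisation gave 147 higher and 180 lower in that comparison, and an equal endogenous sum 135 and 187. The equal sum gave 149 lower calls in Mac Dex (95) and 165 in Mono Dex (84). Replicate numbers were not shown to pair the samples (r of same-numbered deviations from −0.415 to 0.226). With the number as a replicate block the FKBP5 changes were 4.37 in Mono Dex and −1.49 for Mac Control against Mono Control, Mac Dex against Mono Dex was 0.34, and the difference of the changes had 28 higher (51) and 21 lower (47) calls. Lower calls of that difference ran from 29 to 52 with 1 sample left out, the fewest without Mac Dex replicate 1.

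As a percentage of the summed housekeeping signal FKBP5 averaged 19.0 in Mac Dex, 0.249 in Mac Control, 18.5 in Mono Dex and 0.913 in Mono Control, and with FKBP5 left out of the denominator 6.36 in Mono Dex. Without the sample factor it averaged 25212 net counts in Mac Dex, 29576 in Mono Dex and 1552 in Mono Control. Of the 8 nearest genes, 4 were shared without scaling to the range, 3 with median centring, and 5 to 7 with 1 sample left out (5 without Mac Control replicate 3).

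Signs also turned for the named values that follow. For CHUK in Mono Dex they were 0.13 with median centring, 0.0086 with housekeeping centring and 0.0067 without Mono Dex replicate 6, within a range of −0.040 to 0.0067 with 1 sample left out, and in Mac Dex −0.071 with an equal sum. In Mono Dex, IKBKB was 0.047 and IKBKG 0.039 with median centring. In Mac Dex, OAZ1 was −0.37 with quantile normalisation and −0.0025 with an equal sum, and TNFAIP3 was −0.10 with an equal sum, −0.02 without Mac Control replicate 3 and −0.17 without Mac Dex replicate 5. The CD163 difference of changes was 0.28 with a pseudocount of 20. The causes were not tested. Limits are the 2 Mac Dex samples, kept in part for their FKBP5, the unknown background, and low genes within reach of the negative controls.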
